A study of Mus musculus with 2 samples.

Results

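The 36 genes described here carry glucose from the cell surface to lactate, pyruvate and glycogen: glucose carriers, the enzymes of glycolysis and their isoenzymes, the kinases that set phosphofructokinase activity, lactate dehydrogenases and lactate carriers, the pyruvate dehydrogenase complex with its kinases and a phosphatase, and 4 enzymes of glycogen turnover. The list was drawn up with earlier results of these data known. Its genes were taken by name, as every non-control spot on both arrays whose gene name is one of the 36. That gave 62 probes on 71 spots per array, out of 55681 probes on 59305 spots. Of the 36 genes, 35 had a probe well above background on both arrays in at least one condition, among 19220 such genes in all. The exception was Slc2a3, the glucose carrier GLUT3, whose probe was not well above background in either condition on either array.

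The RNA came from mIMCD3, an immortalized mouse cell line from the inner medullary collecting duct, the last tubule segment of the kidney. Cells received the bone-derived hormone FGF23 at 10 ng/mL for 4 h or were left unstimulated, and the series asks what FGF23 does in tubule cells outside calcium and phosphate handling. Both conditions shared the culture medium with 10% serum at 37 °C and 5% CO2. Total RNA of the cells with and without FGF23 was hybridised together on each of 2 two-colour Agilent arrays. FGF23 RNA was labelled with Cy3 on array 1 and with Cy5 on array 2, per the labels, so that a bias of either dye enters the arrays with opposite sign. Each ratio is given below as log2 of FGF23 over unstimulated, and its direction rests on these labels. The labels name a single line and leave unsaid whether each array had its own culture or RNA extract. Errors thus measure only the spread between these arrays, which may be technical and holds any dye bias of the gene. The p-values rest mostly on a spread pooled over all genes (1 residual degree of freedom beside a prior of 11.9). As RNA of whole cultures was measured, a change in RNA per cell and a change in the share of cells that hold it cannot be told apart.

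Of 10 markers of collecting duct and epithelium, 8 were measured, the exceptions being Aqp3 and Elf5, with mean log2 ratios from -0.078 to 0.15. Of those measured, Aqp2, Scnn1a and Gata3 were dim, at log2 intensities of 7.52, 7.19 and 7.74. The general epithelial markers Epcam, Cdh1, Krt19, Krt8 and Krt18 ran from 10.22 to 16.60. Of markers of other cells, 4 of 6 for proximal tubule, 1 of 4 for thick ascending limb and distal tubule, 2 of 4 for intercalated cells, 1 of 5 for fibroblasts, 2 of 5 for macrophages and 2 of 4 for endothelium were measured. Their mean log2 ratios ran from -0.082 to 0.16 and none passed the test, while the macrophage marker Adgre1, the fibroblast marker Pdgfra and the endothelial marker Cdh5 were not well above background. The macrophage marker Csf1r (log2 ratios of 0.13 and 0.18) and the endothelial marker Kdr (0.017 and 0.048) were measured, at log2 intensities of 11.45 and 11.34. The part of such cells in the results was not tested. Per array and dye, 48.2% to 55.2% of spots lay well above background. No spot was saturated, and the number of arrays limits the precision.

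Glycolysis breaks glucose down to pyruvate in the cytosol. Pyruvate is either reduced to lactate by lactate dehydrogenase and exported by monocarboxylate carriers, or enters mitochondria and is oxidised by the pyruvate dehydrogenase complex, which the Pdk kinases switch off by phosphorylation. Many of these genes are targets of the hypoxia-inducible factor HIF-1, and the cells of the inner medulla work at low oxygen and are known for anaerobic glycolysis. Most steps have several isoenzymes, encoded by separate genes that differ in tissue and in regulation.

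After FGF23, 2 members rose, the lactate carrier Slc16a3 and the kinase Pdk1, and none fell. Slc16a3 was 1.51-fold and Pdk1 1.5-fold higher, with log2 ratios of 0.60 ± 0.087 and 0.59 ± 0.083 (SD, n = 2 arrays, as for all errors below). The glycogen phosphorylase Pygl (0.53 ± 0.11), the aldolase Aldoc (0.45 ± 0.020) and the glucose carrier Slc2a1 (0.41 ± 0.20) came next and did not pass. Of the 35 measured members, 24 were above 0 on both arrays, 2 were below 0 on both and 9 had opposite signs. The mean log2 ratios of all 35 ran from -0.11 to 0.60.

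The test was limma's moderated test over all 19220 genes with Benjamini-Hochberg adjustment, and a gene passed at an adjusted p under 0.05. It called 0.0468% of all genes higher and 0% lower, against 2 and 0 of the 35 members. At an unadjusted p under 0.05, 2.6% of all genes were higher and 1.31% lower, against 12 and 0 members. Above 0 on both arrays were 23.9% of all genes and below 0 on both 22.3%, against 68.6% and 5.71% of the members. The members were chosen with earlier results of these data known. These counts and shares, and the medians below, are therefore description only and do not test the list. The sign differed between array 1 and array 2 for 10345 of the 19220 genes. Across genes, array 1 and array 2 were weakly and negatively correlated (Pearson coefficient of -0.12). As the ratios of array 1 were turned for the swap, the ratios of Cy5 over Cy3 were weakly and positively correlated. Over genes as a whole, the arrays thus shared no pattern of FGF23 over unstimulated, while they weakly shared one of Cy5 over Cy3. The part of a dye bias left after normalization was not tested. The median log2 ratio of the members was 0.11 (0.093 on array 1 and 0.16 on array 2), beside -0.00068 over all genes (-0.012 and 0.015). On array 1 alone 26 members were above 0, and on array 2 alone 31 were, against 46.3% and 55.3% of all genes. The call of both genes ended with 3 processing alternatives, namely the scanner software's own log ratio, a background offset of 0 and median centring in place of loess. With median centring, which does not remove a dye bias that varies with brightness, 1 member (Pygl) was above 0 on both arrays.

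**Figure D1:**
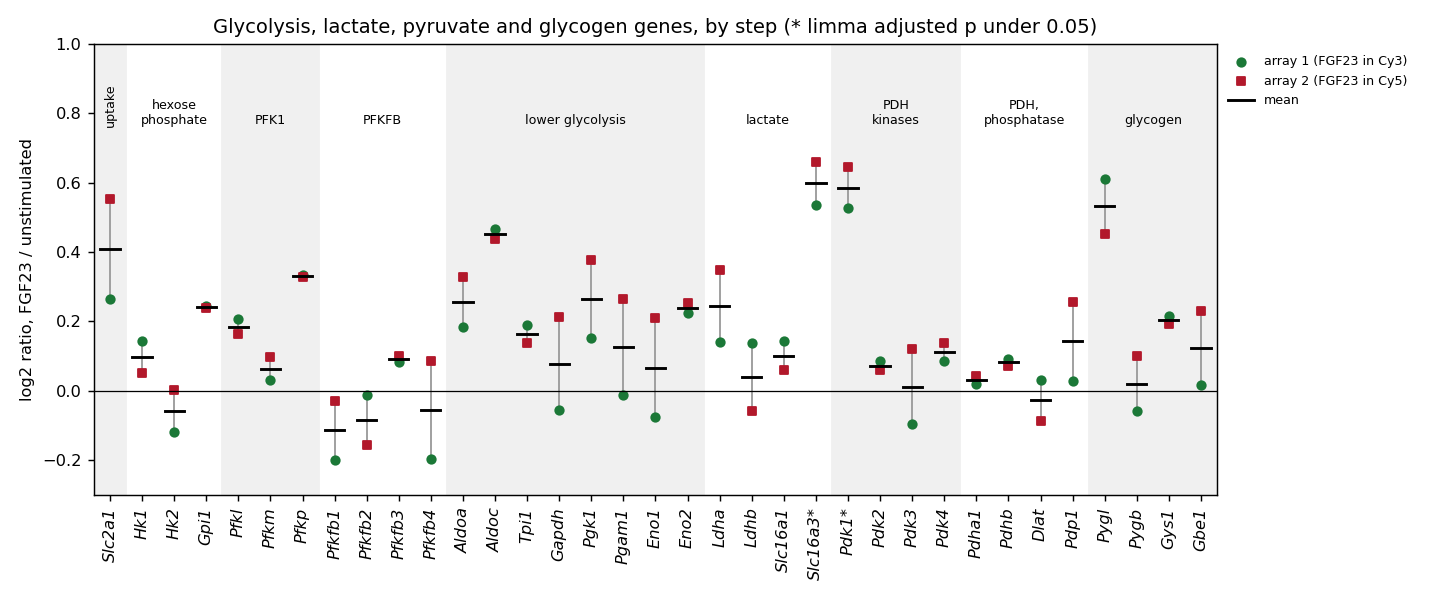
Log2 ratio of FGF23 over unstimulated for the 35 measured members, ordered from glucose uptake to glycogen, with array 1 as circles, array 2 as squares, the mean as a bar and an asterisk where limma's adjusted p was under 0.05. Slc16a3 and Pdk1 lie above 0.5 on both arrays, while Pfkfb1 and Pfkfb2 are the members below 0 on both.

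**Figure D2:**
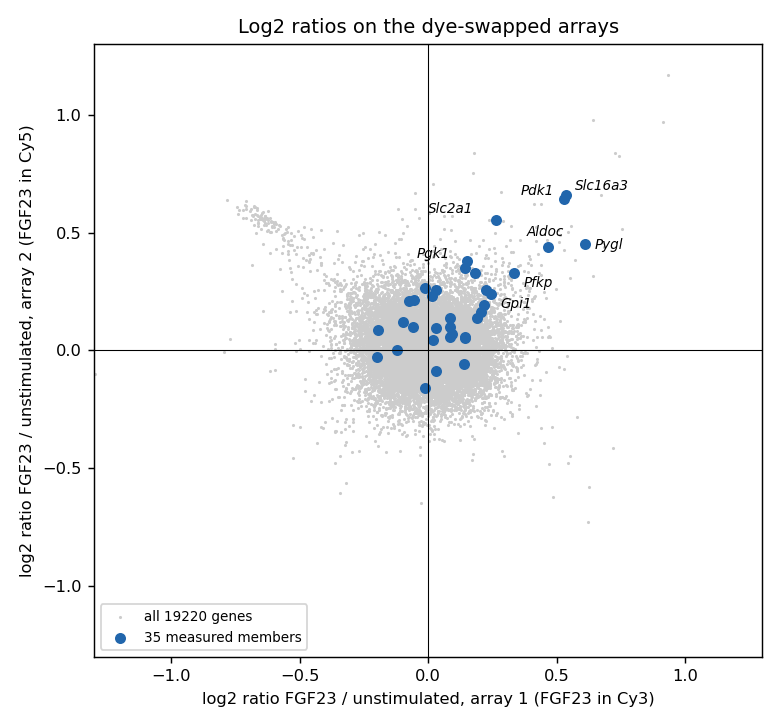
Log2 ratio on array 2 against that on array 1 for all 19220 measured genes (grey, 1 of them outside the range drawn) and the 35 members (blue). Of the members, 24 lie in the upper right quadrant and 2 in the lower left.

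Slc2a1 encodes GLUT1, the carrier through which most epithelial cells take up glucose. Its log2 intensity was 12.64 with FGF23 and 12.38 without on array 1, and 12.79 and 12.24 on array 2. The FGF23 values were the higher on both arrays, but by 0.26 on array 1 and 0.55 on array 2. In limma its adjusted p was 0.33 (rank 49 of 19220 by p). Its probe lies on chromosome 4 from 118809864 to 118809923 (mm9). The probe of Slc2a3 had raw mean signals of 37.6 and 42.8 with FGF23 and 39.9 and 42.0 without, so this carrier gives no usable ratio.

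Hexokinases trap glucose in the cell as glucose 6-phosphate, and Gpi1 turns that into fructose 6-phosphate. The housekeeping hexokinase Hk1 had log2 ratios of 0.14 and 0.052 on arrays 1 and 2, and its other kept probes had means of 0.098 and 0.047. Hk2, the insulin- and hypoxia-responsive hexokinase, had -0.12 and 0.0023. Neither gene passed (0.097 ± 0.065 and -0.059 ± 0.086). Gpi1 was even across the dye swap, at 0.24 on both arrays (0.24 ± 0.0035). Its 3 probes, with means from 0.23 to 0.24, overlap over at least 55 bases and are almost the same measurement. At an unadjusted p of 0.015 in limma, Gpi1 did not pass after adjustment.

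Phosphofructokinase commits sugar to glycolysis, and its subunits come in a liver, a muscle and a platelet form. The platelet form Pfkp had the largest ratio of the 3, at 0.33 on both arrays (0.33 ± 0.0047), with an adjusted p of 0.50 in limma. The liver form Pfkl had 0.21 and 0.16, and the muscle form Pfkm, spotted 10 times, had 0.031 and 0.097. All 3 were above 0 on both arrays and none passed. Pfkp's chosen probe spans 2155 genomic bases on chromosome 13 and so joins separate stretches of the gene, while its other, dimmer probe had a mean log2 ratio of 0.10.

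The bifunctional enzymes of the Pfkfb family make and break fructose 2,6-bisphosphate, the strongest activator of phosphofructokinase. This group held the 2 members with the lowest means. Pfkfb1 had -0.20 and -0.028, Pfkfb2 had -0.012 and -0.16, and Pfkfb4 had -0.20 and 0.087. Pfkfb3, the form with the most kinase activity and a known HIF-1 target, had 0.083 and 0.10 (0.092 ± 0.012), and its second kept probe had 0.13. None of the 4 passed, and with a mean of -0.11 ± 0.12 even Pfkfb1 did not leave the spread of the arrays. The group median of -0.069 was the only one below 0 among the 9 steps.

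From aldolase to enolase, the later enzymes of the pathway split sugar phosphate and harvest ATP and NADH. Of these 8 members, 5 were above 0 on both arrays, none was below on both and none passed. Aldoc, an aldolase known mainly from brain and also induced by hypoxia, had log2 intensities of 12.25 with FGF23 and 11.78 without on array 1, and 12.32 and 11.88 on array 2. Its ratios of 0.47 and 0.44 were close on the arrays, and its adjusted p in limma was 0.12 (rank 24). Its probe lies on chromosome 11 from 78140198 to 78140257 (mm9).

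The ubiquitous aldolase Aldoa had 0.18 and 0.33 (0.25 ± 0.10). Phosphoglycerate kinase, Pgk1, had 0.15 and 0.38 (0.27 ± 0.16), and its second probe, which shares 54 bases with the first, had a mean of 0.26. The neuronal enolase Eno2 had 0.22 and 0.25 (0.24 ± 0.022), triosephosphate isomerase Tpi1 had 0.19 and 0.14 (0.16 ± 0.037), and Tpi1's dimmer probe had a mean of 0.096. These 4 genes were thus higher with FGF23 on both arrays, by their chosen probes. Phosphoglycerate mutase Pgam1 (-0.013 and 0.26), the common enolase Eno1 (-0.076 and 0.21) and Gapdh (-0.055 and 0.21) had opposite signs on the arrays. For each of these 3, the cells labelled with Cy5 were the brighter on both arrays.

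Gapdh, often used as a reference gene, had 8 kept probes, the most of any member. Their mean log2 ratios lay close together, from 0.058 to 0.089. On single arrays they spread more, from -0.10 to 0.082 on array 1 and from 0.064 to 0.27 on array 2. The dimmest probe, at a log2 intensity of 13.26, had 0.082 and 0.096, while the brightest, at 17.08, had -0.055 and 0.21. The arrays parted most for 3 of the 4 brightest probes, while the means over the dye swap lay close together for all 8. For Ldha, too, the brightest of its 3 probes had the widest gap between the arrays. Of the 8 Gapdh probes, 2 are placed on chromosome 7 (mm9) and 6 on chromosome 6, so copies of Gapdh may share the signal.

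**Figure D3:**
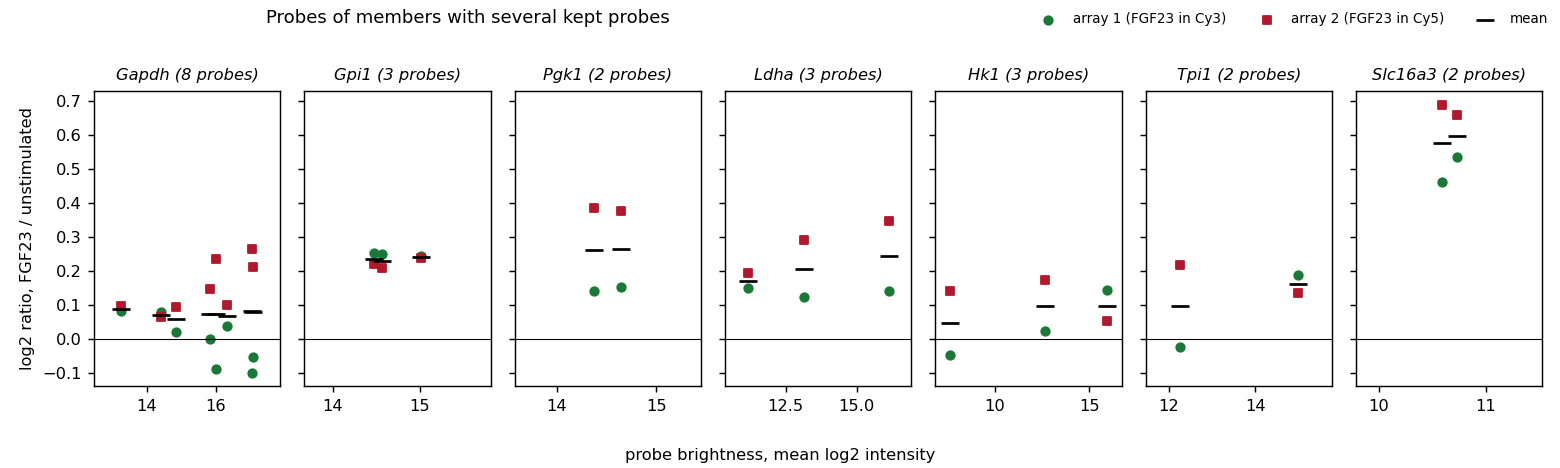
Log2 ratio of FGF23 over unstimulated against probe brightness (mean log2 intensity) for 7 members with several kept probes, with array 1 as circles, array 2 as squares and the mean as a bar. The 8 Gapdh probes have means from 0.058 to 0.089, and their arrays part most for 3 of the 4 brightest probes.

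Brightness bears on how to read these ratios, so the brightest signals were set beside other probes of like brightness. This range, from the log2 intensity of Pgk1 (14.65) upwards, was chosen after the values were seen. It held 970 genes, 9 of them members: Aldoa, Eno1, Gapdh, Gpi1, Hk1, Ldha, Pgam1, Pgk1 and Tpi1. At an unadjusted p under 0.05 in limma, 5 of the 970 genes were higher, and 4 of these were Aldoa, Gpi1, Ldha and Pgk1, the remaining one being a probe with no gene symbol. As many, 5 of the 970, were lower, none of them a member, and mean log2 ratios in this range ran from -0.35 to 0.27. Pgk1 ranked 1 of 970 by mean log2 ratio. Its own brightness set the lower limit, and the members were chosen with earlier results known. The counts and this rank are therefore description only and test nothing. Over the 970 genes the median was -0.029 on array 1 and 0.036 on array 2, so Cy5 was slightly the brighter dye in this range.

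Lactate dehydrogenase is built from A and B subunits, of which the A form, from Ldha, is known for turning pyruvate into lactate. Ldha had log2 ratios of 0.14 and 0.35 (0.25 ± 0.15), and its other probes had means of 0.21 and 0.17, all above 0 on both arrays. Ldhb had 0.14 and -0.059. The difference of Ldha and Ldhb was 0.0031 on array 1 and 0.41 on array 2, so it rests on array 2.

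Lactate leaves the cell through monocarboxylate carriers. Slc16a3 encodes MCT4, a low-affinity carrier of cells that export much lactate, and Slc16a1 encodes MCT1, a high-affinity carrier that works in both directions. The log2 intensity of Slc16a3 was 10.96 with FGF23 and 10.42 without on array 1, and 11.10 and 10.44 on array 2. Its ratios were 0.54 and 0.66. It rose with an adjusted p of 0.030 in limma, at rank 8 of 19220 by p, and over the processing alternatives that p ran from 4.25e-08 to 1. Its log2 ratio stayed between 0.59 and 0.62 under these alternatives. The probe lies on chromosome 11 from 120820030 to 120820089 (mm9), and a second probe with a mean of 0.58 shares 53 of its bases, so it is hardly separate evidence.

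Slc16a1 had 0.14 and 0.059 (0.10 ± 0.059) and did not pass. Its probe was the dimmest of the measured members, at a log2 intensity of 6.79. With a background offset of 0 in place of 50, its log2 ratio was 0.19, and with the scanner software's own log ratio it was 0.27. Slc16a3 exceeded Slc16a1 by 0.39 on array 1 and 0.60 on array 2 (0.50 ± 0.15). With 2 arrays an exact sign-flip test of such a difference cannot go below a p of 0.5, so the 18 differences computed between members are given with no test.

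Pyruvate dehydrogenase kinases phosphorylate the complex and keep pyruvate out of the citric acid cycle. Of the 4, Pdk1 rose and the others did not pass. The log2 intensity of Pdk1 was 8.98 with FGF23 and 8.45 without on array 1, and 9.10 and 8.45 on array 2. On each array the FGF23 value lay above the unstimulated one, which gave ratios of 0.53 and 0.64. Its adjusted p in limma was 0.033, at rank 9 of 19220, and ran from 1.07e-06 to 1 over the processing alternatives, with log2 ratios from 0.57 to 0.69. The probe lies on chromosome 2 from 71739688 to 71739747 (mm9) and was the only one for this gene.

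Pdk2, the most widely expressed form, had 0.086 and 0.059, and its second, dimmer probe had a mean of -0.023. Pdk3 had -0.097 and 0.12, and Pdk4, the form induced by fasting, had 0.085 and 0.14. Pdk1 exceeded Pdk2 by 0.51 ± 0.10, Pdk3 by 0.57 ± 0.071 and Pdk4 by 0.47 ± 0.045, each on both arrays.

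**Figure D4:**
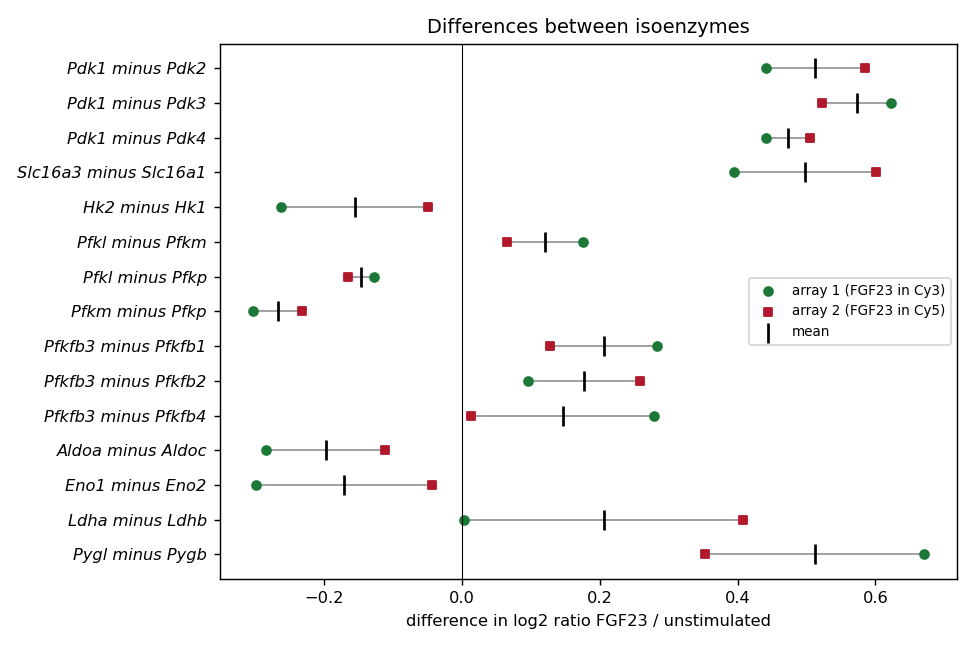
Difference in log2 ratio between 15 pairs of isoenzymes, with array 1 as circles, array 2 as squares and the mean as a bar. Pdk1 exceeds each other kinase by at least 0.44 on both arrays, while Ldha exceeds Ldhb by 0.0031 on array 1 and 0.41 on array 2.

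The genes of the complex itself and of its phosphatase did not pass. The E1 alpha subunit Pdha1, which the kinases phosphorylate, had 0.031 ± 0.015, and the E1 beta subunit Pdhb had 0.082 ± 0.015. The E2 subunit Dlat had -0.028 ± 0.084 and the activating phosphatase Pdp1 had 0.14 ± 0.16. Pdha1, Pdhb and Pdp1 were above 0 on both arrays by their chosen probes, though the other probes of Pdp1 had means of -0.031 and 0.037. Another Pdhb probe had opposite signs, with 0.29 on array 1 and -0.11 on array 2, while its dimmest probe had 0.062 and 0.12. Pdk1 exceeded Pdp1 by 0.44 ± 0.077 and Pdha1 by 0.55 ± 0.068.

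Sequences are printed for the members that rose, the isoenzyme of Slc16a3 and the member next in p, but not for the isoenzymes of Pdk1. For the lactate carriers, Pdk1 and Pygl, these are the 250 bases before the RefSeq transcription start (GRCm38.p6). They were searched for the core of the hypoxia response element, ACGTG or GCGTG, on both strands (read as CACGT or CACGC on the other), where hits may overlap. Capitals mark these cores. They lie at chr11:120948817-120949066 (plus strand) for Slc16a3, chr3:104638414-104638663 (plus) for Slc16a1, chr2:71872974-71873223 (plus) for the upstream start of Pdk1 and chr12:70227684-70227933 (minus) for Pygl.
Slc16a3: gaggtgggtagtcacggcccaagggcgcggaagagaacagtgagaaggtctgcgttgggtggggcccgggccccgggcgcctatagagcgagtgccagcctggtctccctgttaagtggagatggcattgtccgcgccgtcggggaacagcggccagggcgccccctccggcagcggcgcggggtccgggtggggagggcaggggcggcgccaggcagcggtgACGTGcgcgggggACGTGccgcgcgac
Slc16a1: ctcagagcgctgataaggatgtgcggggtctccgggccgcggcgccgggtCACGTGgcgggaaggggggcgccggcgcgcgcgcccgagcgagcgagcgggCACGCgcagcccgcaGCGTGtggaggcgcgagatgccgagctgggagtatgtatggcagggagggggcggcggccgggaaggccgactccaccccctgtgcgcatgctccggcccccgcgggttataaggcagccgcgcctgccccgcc
Pdk1: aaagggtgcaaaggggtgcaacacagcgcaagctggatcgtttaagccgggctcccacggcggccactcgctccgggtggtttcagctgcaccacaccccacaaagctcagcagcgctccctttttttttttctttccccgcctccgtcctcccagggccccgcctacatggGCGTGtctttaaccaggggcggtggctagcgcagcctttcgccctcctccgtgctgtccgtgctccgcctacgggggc
Pygl: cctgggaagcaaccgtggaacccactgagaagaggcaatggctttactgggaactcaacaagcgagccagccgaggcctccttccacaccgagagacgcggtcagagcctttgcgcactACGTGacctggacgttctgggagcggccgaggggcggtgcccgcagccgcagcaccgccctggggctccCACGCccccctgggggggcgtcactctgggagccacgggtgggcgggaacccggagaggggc

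Slc16a3, which rose, holds 2 cores, the farther at -27 from its start, while Slc16a1, which did not pass, holds 4, all farther upstream. Pdk1 holds 1 at its upstream start and none at its second start, and Pygl holds 2. Of the isoenzymes of Pdk1, which did not pass, Pdk2 holds 2 at its upstream start and none at its other. Pdk3 holds 4 and Pdk4 holds 1. Cores thus stood before members that rose and members that did not pass. Of the 34 members with a promoter in the table, 28 (82.4%) held it before at least one start, beside 41.5% of 27025 genes. Per promoter the share was 73.1% of 52 for the members and 38.6% of 32851 overall. Among members with an unadjusted p under 0.05 in limma it was 9 of 12 and among the other measured members 19 of 22. A match describes these letters only.

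Glycogen stores glucose, and phosphorylases release it. Pygl, the liver form, had the third largest mean ratio of the members. Its log2 intensity was 7.81 with FGF23 and 7.20 without on array 1, and 7.89 and 7.43 on array 2. It had ratios of 0.61 and 0.45 and an adjusted p of 0.068 in limma (rank 13), and did not pass. With an offset of 0 its log2 ratio was 0.74, and with the scanner software's own log ratio it was 0.77. It passed under 2 alternatives, with adjusted p from 2.78e-05 to 1 over all of them. The probe, its only one, lies on chromosome 12 from 71291855 to 71291914 (mm9).

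The brain form Pygb had -0.059 and 0.10, so Pygl exceeded it by 0.67 on array 1 and 0.35 on array 2. On the side of synthesis, glycogen synthase Gys1 had 0.22 and 0.19 (0.20 ± 0.015, unadjusted p = 0.033 in limma), although its dimmer probe had a mean of 0.060. The branching enzyme Gbe1 had 0.015 and 0.23, with 0.24 for its dimmer probe. None of the 4 glycogen members passed.

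Of 94 other genes of glucose, lactate, glycogen, pentose phosphate, gluconeogenesis and citric acid cycle steps, 71 were measured and none passed in either direction. At an unadjusted p under 0.05 in limma, 4 of the 71 were higher and 0 lower, beside 2.6% and 1.31% of all genes. The 71 genes had a median log2 ratio of 0.015, with 17 above 0 on both arrays and 11 below, beside 23.9% and 22.3% of all genes. Phosphoglucomutase Pgm1, which links glycogen to glycolysis, had the largest ratio (0.29 and 0.38, mean 0.33 ± 0.061), at an adjusted p of 0.51. Stbd1, which anchors glycogen to membranes, followed with 0.31 and 0.16. The lowest were the ADP-dependent sugar kinase Adpgk (-0.084 and -0.22) and the phosphorylase kinase subunit Phkg2 (-0.13 and -0.10).

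By group, the 19 other genes of transport and glycolysis measured, of 34 listed, had a median of 0.032, with 4 above 0 on both arrays, 2 below and 13 of opposite signs. Among them was the pyruvate kinase Pkm, the last step of glycolysis, with -0.0053 and 0.070 (0.032 ± 0.053). The 18 further glycogen genes measured had a median of 0.040, with 9 above 0 on both arrays and 3 below. The 17 citric acid cycle genes had a median of -0.012, with 2 above and 3 below. The 7 pentose phosphate genes had -0.024, with 0 above and 3 below. Of the 8 gluconeogenic genes, 4 were measured, with a median of 0.051, while Pck1, Fbp1 and G6pc were among those whose signal was too close to background. The other 6 genes of pyruvate import and dehydrogenase had a median of 0.0082. Beside the sign counts of these groups, 23.9% of all genes were above 0 on both arrays and 22.3% below.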

How the data were processed

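Per the file headers, the deposited scanner output came from Agilent's Feature Extraction software, version 11.5.1.1, with probe positions on mm9. The deposited intensity values are each spot's mean signal and background in both dyes, on a linear scale and not normalized, per the file headers. Its deposited log10 ratio (Cy5 to Cy3) was already background-subtracted and dye-normalized by that software, and served as an alternative. Flags of 0 or 1 for outlier and well-above-background spots were used as deposited.

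Mean signals were background-corrected (normexp, offset 50) and loess-normalized within arrays in limma 3.58.1 (R 4.3.3), with control spots at weight 0. Spots marked as outliers were dropped, and a probe's remaining spots were averaged. The filter kept 26941 probes, those for which over 0.5 of the spots carried the well-above-background flag on each array in 1 condition or both. The brightest kept probe stood for a gene. Symbols were updated through RefSeq (GRCm38.p6), for which 28026 probes matched; no member changed. lmFit and eBayes had 1 residual degree of freedom and a prior of 11.9, and no dye term could be fitted beside the ratio. Log2 intensities are after this normalization, which set no common scale between the arrays. They served to order and group probes by brightness and were not read as RNA levels between genes. The test was checked on simulated ratios with known changes, drawn independently for each array and with no dye effect. They cannot show how the test performs on these dye-swapped arrays. Members and lists were chosen with earlier results of these data known. All members are named, and of the related genes the 2 of largest mean in each direction; Pgm1, Stbd1, Adpgk and Phkg2 follow from that rule. Exon and UTR positions of probes were not analysed here.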

Additional observations from a re-analysis of the deposited data

How the results depend on the processing

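No paired analysis was possible because both arrays belong to 1 group, and each ratio already pairs the conditions within an array. Beside the 2 members called higher in the report, the scanner software's ratio, a normexp offset of 0 and median centring each gave 0, and eBayes with trend and robust settings gave 5 (Slc16a3, Pdk1, Pygl, Aldoc and Slc2a1). Dropping or tightening the filter each gave 2, and averaging a gene's probes gave 3, where Pygl joined (limma's adjusted p = 0.034). Pygl has only 1 probe, so its own ratio was the same there and no further probe bears on it. Over all genes, calls were 9 higher and 0 lower with the main settings, and 59 and 20 with trend and robust settings. Averaged probes gave 16 and 1, and an offset of 0 gave 5 and 0. The scanner software's ratio and median centring called no gene. With the filter dropped or tightened, 10 were higher and 0 lower. No member was lower under any setting. At an unadjusted p under 0.05 in limma 0 members were lower under all 8 settings, with 0 higher under median centring and 7 to 13 otherwise. Under the 3 settings with no calls, in that order, Slc16a3 had log2 ratios of 0.61, 0.62 and 0.59 and Pdk1 had 0.69, 0.67 and 0.57. With median centring 1 member was above 0 on both arrays and 0 were below, and with the other settings 22 to 25 were above and 2 or 3 below. For the unadjusted and sign counts, shares over all genes are given above for the main settings only. The median of the members was 0.16 without array 1 and 0.093 without array 2, and 0.097 to 0.13 over the processing alternatives. No member's mean changed sign under a processing alternative, and of those 245 values 235 kept their side of the threshold. Most of the 245 belong to members far from the threshold with the main settings, so that count says little about the calls. Of the rest, 6 lost a call, all of them of Slc16a3 or Pdk1, and 4 gained one. The cause of these differences was not tested. Dim signal limits Slc16a1, Pdk2, Pfkfb2 and Pygl, whose probes were below a log2 intensity of 7.7.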
